A study of Mus musculus with 10 samples.

Results

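Interferon-stimulated genes are the genes that cells switch on when interferons bind their receptors. A list of 43 of them was followed in B cells of the mouse spleen. They were chosen by name for their known roles in the interferon response, but with earlier results of these data known. Counts over the list, set beside those over all genes, are therefore descriptions. Of the 43, 41 had a probe set annotated to that gene alone, among 18194 genes with such a probe set. Isg15 shares its probe set with other gene names and Ifi44 has no probe set of its own, and both were not analysed here. Where a gene had several such probe sets, the brightest on average was used.

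RNA was measured on 10 Affymetrix whole-genome mouse arrays, 1 array per sample of sorted B cells, and values are log2 probe set signals. Germinal centre (GC) B cells came from B1-8 mice, which carry the VH186.2 heavy chain transgene (n = 3), and from V23 mice, which carry the V23 heavy chain transgene (n = 3). Both lines have a targeted deletion of the endogenous JH locus on a Balb/c background, so that their B cells use the transgenic heavy chain. They received 50 µg of NP-CGG, a hapten on a carrier protein, in alum by intraperitoneal injection, and splenic B220+ cells that bound PNA and carried λ light chains were sorted at day 14. Naive B cells came from the spleens of unimmunized Balb/c mice (n = 4); no transgene or deletion is named for them, and their sort stain is not given. Age and sex are not given in the labels, nor whether replicates are separate animals; p-values measure the spread between these samples. Immunization, transgene and JH deletion all go with the GC samples, and in the comparison with naive cells they cannot be told apart from the GC state or from the λ+ PNA+ sort.

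Type I interferons signal through the receptor chains Ifnar1 and Ifnar2 and the kinases Jak1 and Tyk2, which activate Stat2. Stat2 joins Irf9 in the complex ISGF3, which binds interferon-stimulated response elements and switches on antiviral genes. Interferon-gamma uses other receptor chains and acts through gamma-activated sites, and many genes respond to both. Many cells keep a low level of these genes without infection, through weak constant interferon signalling.

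GC B cell markers set the GC arrays apart. Marker calls are limma's at an adjusted p under 0.05, for both GC groups averaged against naive. In that comparison 20.5% of all genes tested were called higher and 21.0% lower. The log2 of the summed signal of 6 GC B cell markers was 15.1 on each B1-8 and V23 array, against 12.3 to 13.5 on naive arrays, and that of 6 B cell markers was 15.8 to 16.2 over the GC arrays, against 16.2 to 16.4 over the naive arrays. Of these B cell markers 3 were called lower in GC samples (Pax5 by −1.32, Ebf1 by −0.46 and Cd79a by −0.40). All 9 measured neutrophil markers of 10 were called higher in GC samples, with sums of 15.9 on each B1-8 array and 15.2 to 15.8 on V23 arrays, against 11.4 to 13.8 on naive arrays. Natural killer cell markers (5 of 6 measured, 3 called lower) summed to 9.69 to 9.75 and 9.61 to 9.88 in B1-8 and V23 arrays, against 10.6 to 11.1 in naive arrays. Plasmacytoid dendritic cell markers (7 measured, 3 called higher and 4 lower, 1 of them the member Bst2) summed to 12.7 on each B1-8 array and 12.5 to 12.6 on V23 arrays, against 12.8 to 12.9 in naive arrays. Macrophage and monocyte markers (10 of 11 measured, 9 tested, 1 called higher and 3 lower) overlapped between groups, at 12.5 to 12.6 and 11.9 to 12.5 against 11.2 to 12.6. Erythroid markers (4 of 6 measured, 2 called lower) summed to 7.20 to 8.70 and 7.38 to 8.13, against 8.79 to 10.1 in naive arrays. Conventional dendritic cell markers (6 of 7 measured, 2 called higher and 1 lower) summed to 10.1 to 10.3 and 9.91 to 10.4, against 8.94 to 9.70, and plasma cell markers (6 measured, 2 called higher and 1 lower) to 14.4 to 14.6 on GC arrays, against 13.4 to 13.9. T cell markers (9 of 10 measured, 1 called lower) overlapped between groups. The proliferation marker Mki67 was 13.37 to 13.71 on GC arrays, against 12.18 and 11.06 on naive replicates 2 and 4 and 10.36 and 10.56 on naive replicates 1 and 3. Among the other GC B cell markers, Gcsam was 8.52 and 7.25 on naive replicates 2 and 4, against 5.25 on replicates 1 and 3. In the same order S1pr2 was 9.87 and 8.53 against 7.70 and 7.88, and Mybl1 8.85 and 7.59 against 6.76 and 6.93. Fas was 9.78 and 9.86 against 9.30 and 9.24, while Bcl6 was 11.99 and 11.85 against 11.39 and 11.88. No marker was below log2 4 on every array. RNA quality also moved with the groups: the 3′ minus 5′ signal difference of the Actb control probe sets averaged 0.98 in B1-8 and 0.777 in V23 samples, against 1.46 in naive samples. For GC minus naive it was −0.59 (exact permutation test over the arrays, two-sided, p = 0.00476; 210 splits allow no smaller p; 0.00952 adjusted over the 2 control genes). For Gapdh it was −0.36 (exact permutation p = 0.0143, adjusted 0.0143). The part of these cells and of RNA quality in the results below was not tested.

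The interferon-stimulated response element is the sequence through which ISGF3 acts, and promoters with and without its core are shown here. A promoter of 250 bases before to 50 bases after the start was found for 32 of the 43 genes (38 promoters, RefSeq, build GRCm38.p6). Each was searched on both strands for the response element core, which is GAAA, any 2 bases and GAAA, or TTTC, any 2 bases and TTTC when it lies on the other strand; overlapping matches were counted. The core was present in promoters of 15 of these 32 genes (46.9%). Counted by promoter, it was in 15 of 38 (39.5%), against 1131 of all 32851 promoters (3.44%). The gamma-activated site core TTCNNNGAA, which reads the same on both strands, was in 8 of the 38 promoters (21.1%), against 2726 of 32851 (8.30%). The lines below give the 160 bases before the start, 5′ to 3′ on the gene's own strand, for 7 genes that hold the response element core and for Samhd1, which holds none in this window. Capitals mark the core and, where 2 cores overlap, their joined run.
Ifit3 promoter, chr19:34583369-34583528, plus strand: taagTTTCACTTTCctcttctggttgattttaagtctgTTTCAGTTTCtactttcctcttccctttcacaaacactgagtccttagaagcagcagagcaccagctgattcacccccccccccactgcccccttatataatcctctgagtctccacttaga
Ifit1 promoter, chr19:34640729-34640888, plus strand: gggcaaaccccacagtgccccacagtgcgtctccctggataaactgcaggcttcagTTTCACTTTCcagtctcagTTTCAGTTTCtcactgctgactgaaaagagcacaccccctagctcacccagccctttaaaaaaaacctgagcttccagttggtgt
Bst2 promoter, chr8:71537473-71537632, minus strand: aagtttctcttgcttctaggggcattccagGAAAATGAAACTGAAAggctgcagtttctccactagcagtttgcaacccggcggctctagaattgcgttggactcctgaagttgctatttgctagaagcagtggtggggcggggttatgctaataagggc
Gbp2 promoter, chr3:142620503-142620662, plus strand: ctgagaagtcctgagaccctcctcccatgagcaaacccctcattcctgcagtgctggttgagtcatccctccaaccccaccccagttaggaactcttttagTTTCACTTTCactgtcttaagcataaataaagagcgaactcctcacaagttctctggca
Irgm1 promoter, chr11:48871421-48871580, minus strand: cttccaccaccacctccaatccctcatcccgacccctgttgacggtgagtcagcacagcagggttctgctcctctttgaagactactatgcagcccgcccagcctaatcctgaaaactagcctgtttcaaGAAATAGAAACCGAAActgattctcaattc
Igtp promoter, chr11:58199396-58199555, plus strand: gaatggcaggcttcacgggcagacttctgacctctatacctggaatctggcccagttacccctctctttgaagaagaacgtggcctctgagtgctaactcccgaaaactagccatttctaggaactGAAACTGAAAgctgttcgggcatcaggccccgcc
Oas1a promoter, chr5:120907526-120907685, minus strand: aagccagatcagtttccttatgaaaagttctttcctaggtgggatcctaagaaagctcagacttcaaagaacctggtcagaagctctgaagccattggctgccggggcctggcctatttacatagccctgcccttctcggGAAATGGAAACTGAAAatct
Samhd1 promoter, chr2:157135097-157135256, minus strand: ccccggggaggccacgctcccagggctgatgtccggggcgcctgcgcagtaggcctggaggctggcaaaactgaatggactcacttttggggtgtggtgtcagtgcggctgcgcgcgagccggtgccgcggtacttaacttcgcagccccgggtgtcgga

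In Ifit3 and Ifit1 both cores lie on the opposite strand, at −156 to −147 and −122 to −113 in Ifit3 and at −104 to −95 and −85 to −76 in Ifit1, counted in bases from the start. Bst2, Irgm1 and Oas1a each hold 2 overlapping cores on the gene's strand, which end at −115, −15 and −5. A match is a description of letters, not of binding. Among the measured genes with a promoter, the median GC minus naive difference was −2.13 for the 14 with the core (range −3.54 to −0.26) and −1.29 for the 16 without it (range −5.69 to 0.57); the ranges overlap and this difference was not tested.

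**Figure D1:**
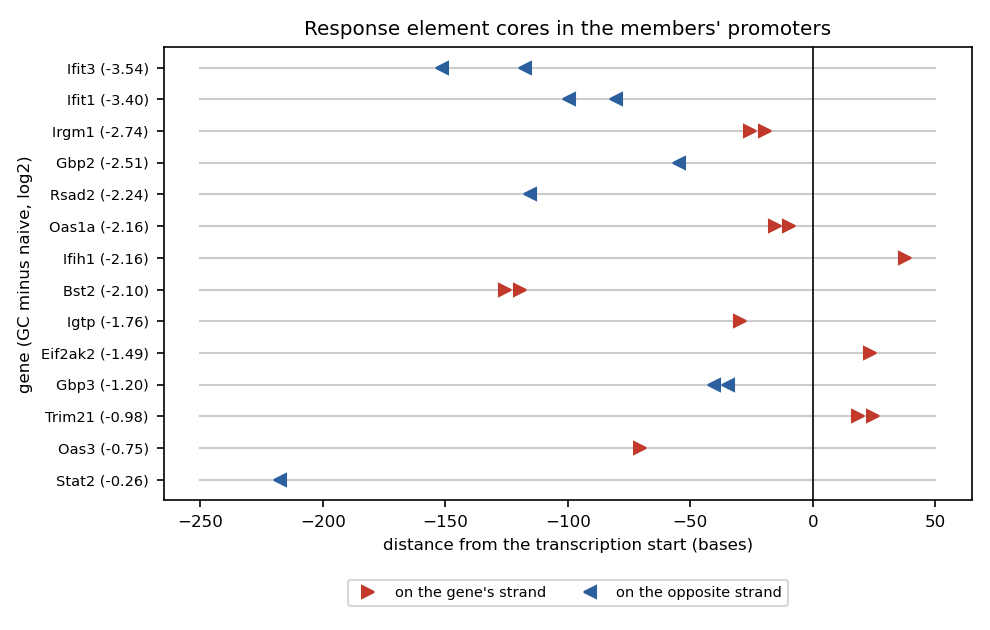
Positions of the response element core in the promoters of the 14 measured genes that hold it. The horizontal axis is the distance from the transcription start in bases, triangles pointing right are on the gene's strand and triangles pointing left on the opposite strand, and each gene's GC minus naive log2 difference stands beside its name, −3.54 for Ifit3 at the top and −0.26 for Stat2 at the bottom.

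The first question was whether the interferon programme of GC B cells differs from that of naive B cells. It was lower in GC B cells of both lines. Of the 41 genes, 37 fell in B1-8 GC cells against naive cells and 1 rose, where 17.3% of all 17204 genes tested fell and 16.4% rose. In V23 GC cells 38 fell and 1 rose, where 19.7% of all genes fell and 18.2% rose. The median difference was −1.67 (log2) in B1-8 and −1.86 in V23 cells, beside medians of 0.05 and 0.06 over all genes tested. Genes were tested with limma on all arrays together, with Benjamini-Hochberg adjustment over all genes tested and a threshold of 0.05. In bulk samples fewer cells of a type and less RNA per cell cannot be told apart.

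The 2 lines share their naive arrays, so their results are not independent. In both lines 36 genes fell. The share of all genes that fell in both was not counted, but it cannot exceed 17.3%, the share that fell in B1-8 cells. At least a 2-fold fall was seen for 28 genes in B1-8 cells (6.90% of all genes) and 29 in V23 cells (8.99%). With both GC groups averaged, 39 genes fell, 1 rose (Samhd1) and 1 did not pass the test (Stat2), where 21.0% of all genes fell and 20.5% rose. Falls were at least 2-fold for 28 genes (8.17% of all genes), of which 20 were at least 4-fold and 10 at least 8-fold. The shares of all genes at these larger folds were not counted, but they cannot exceed 8.17%. In 37 of 41 genes all 6 GC arrays lay below all 4 naive arrays, as they did in 18.5% of all genes. In Samhd1 they all lay above, as in 17.0% of all genes, and in Oas3, Iigp1 and Stat2 the groups overlapped.

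Each GC array showed the shift. Over the 41 genes the median difference from the naive mean was −1.86, −1.45 and −1.60 on the B1-8 arrays and −1.80, −1.58 and −1.62 on the V23 arrays, against −0.02, 0.00, 0.05 and −0.03 on the naive arrays. Between 39 and 40 of the 41 genes lay below the naive mean on each GC array, against 16 to 24 on each naive array. A gene was tested where 3 or more arrays exceeded log2 4, and all 41 genes were. Ifi204 and Mx2 passed it only through naive arrays, and of the other 39 genes 37 fell. Without naive replicates 2 and 4 together, 34 genes fell in B1-8 cells, 37 in V23 cells and 38 for both averaged.

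**Figure D2:**
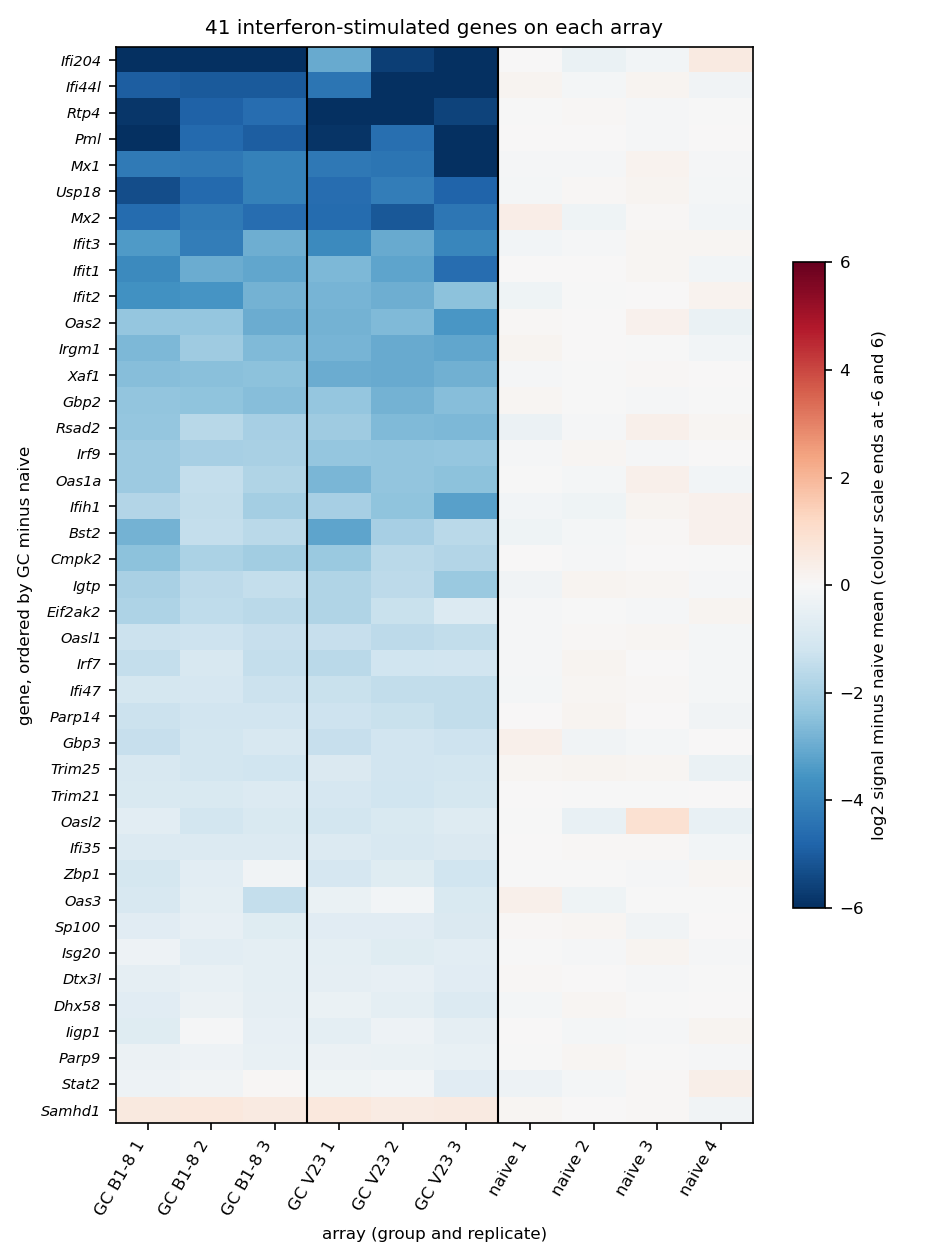
Log2 signal minus the naive mean for 41 interferon-stimulated genes (rows, ordered by the GC minus naive difference) on the 10 arrays (columns: B1-8, V23 and naive). Blue is below and red above the naive mean, and the colours end at −6 and 6 for display. The 6 GC columns are blue in nearly every row, palest towards the bottom, and red in Samhd1.

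The transcription factors of the pathway differed among themselves. Irf9, the DNA-binding subunit of ISGF3, had log2 signals of 9.39, 9.56 and 9.62 in B1-8 cells and 9.25, 9.21 and 9.26 in V23 cells, against 11.52, 11.69, 11.52 and 11.58 in naive cells (probe set 1421322_a_at). The GC arrays lay far below the naive arrays with little spread within a group. Irf9 fell by 2.20 ± 0.07 (log2 difference ± SE of the mean of both GC groups; adjusted p = 6.18e-07), a 4.59-fold difference.

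Irf7, which drives transcription of interferon genes, had 8.88, 9.38 and 8.90 in B1-8 cells and 8.71, 9.14 and 9.19 in V23 cells, against 10.24, 10.50, 10.36 and 10.22 in naive cells (1417244_a_at). No GC array reached the lowest naive array. Irf7 fell by 1.30 ± 0.14 (adjusted p = 0.000132).

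Stat2, the partner of Irf9, had 8.79, 8.86 and 9.14 in B1-8 cells and 8.84, 8.90 and 8.42 in V23 cells, against 8.78, 8.98, 9.13 and 9.43 in naive cells (1450403_at). The groups overlapped. The difference was −0.26 ± 0.16 (adjusted p = 0.233, 95% interval −0.61 to 0.10). A second Stat2 probe set (1421911_at) differed by −0.31 ± 0.09 and passed the test in a fit over all 32240 single-symbol probe sets that passed the filter (adjusted p = 0.0292).

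The ISG15 system, which attaches the ubiquitin-like protein Isg15 to other proteins, was represented by its protease and by a ligase. Usp18, which removes Isg15 and also restrains the interferon receptor, had 5.21, 5.88 and 6.47 in B1-8 cells and 5.98, 6.40 and 5.74 in V23 cells, against 10.41, 10.61, 10.70 and 10.40 in naive cells (1418191_at). The GC arrays varied more than the naive arrays, but the gap between the groups was several times that spread. Usp18 fell by 4.59 ± 0.24 (adjusted p = 3.43e-06), a 24.0-fold difference.

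Trim25, a ubiquitin ligase that acts with the RNA sensor RIG-I, had 11.12, 11.00 and 10.89 in B1-8 cells and 11.23, 10.94 and 10.97 in V23 cells, against 12.22, 12.24, 12.20 and 11.69 in naive cells (1419879_s_at). The fourth naive array stood nearer to the GC arrays than the others but still above them. Trim25 fell by 1.07 ± 0.13 (adjusted p = 0.00025).

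All 4 nucleic acid sensors on the list fell for both GC groups averaged, where 21.0% of all genes fell. Ifi204, a DNA-binding protein of the HIN family, had 1.10, 0.33 and 0.74 in B1-8 cells and 4.60, 1.97 and 1.55 in V23 cells, against 7.62, 7.23, 7.44 and 8.16 in naive cells (1419603_at). Values below log2 4 carry no reliable order, and 5 GC arrays lay there. With such values raised to log2 4, Ifi204 was at least 11.4-fold lower in GC cells (adjusted p = 5.37e-05 on the values as deposited). Ifi204 entered the test only through its naive arrays, so its p-value is not used as support here.

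Ifih1, the long double-stranded RNA sensor MDA5, had 7.23, 7.49 and 6.96 in B1-8 cells and 6.99, 6.56 and 5.70 in V23 cells, against 8.82, 8.71, 9.15 and 9.26 in naive cells. The GC arrays all lay below the naive arrays, the third V23 array furthest. Ifih1 fell by 2.16 ± 0.25 (adjusted p = 0.000164). Dhx58, the regulator of RNA sensing LGP2, fell by less on its brightest probe set (−0.55 ± 0.10). Its 2 other probe sets did not pass (−0.25, adjusted p = 0.340, and −0.43, adjusted p = 0.504), and with the mean of all 3 the call ended (−0.41, adjusted p = 0.112). Zbp1, a Z-form nucleic acid sensor, also fell by less (−0.81 ± 0.16), and a second Zbp1 probe set differed by −2.65. The Zbp1 call in B1-8 cells ended in 9 of 21 alternatives, 7 of which left out arrays.

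For both GC groups averaged, the effectors that bind or degrade viral RNA fell in 10 of 10 cases, with a median of −1.83. In that comparison 21.0% of all genes fell. In each line alone 9 of the 10 fell, where 17.3% of all genes fell in B1-8 and 19.7% in V23 cells. Ifit3, of the family that binds the ends of foreign RNA, had 6.81, 6.06 and 7.27 in B1-8 cells and 6.35, 7.17 and 6.28 in V23 cells, against 10.04, 10.15, 10.31 and 10.29 in naive cells (1449025_at). The groups were well apart. Ifit3, whose promoter holds 2 cores, fell by 3.54 ± 0.26 (adjusted p = 1.39e-05), an 11.6-fold difference. Its relatives Ifit1 (−3.40 ± 0.34) and Ifit2 (−3.03 ± 0.18) fell as well.

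The oligoadenylate synthetases, which make the activator of the RNA-cutting enzyme RNase L, were less alike. Oas1a had 8.44, 9.16 and 8.79 in B1-8 cells and 7.88, 8.26 and 8.14 in V23 cells, against 10.59, 10.50, 10.91 and 10.44 in naive cells (1424775_at). The GC arrays lay below the naive arrays, and the V23 arrays below the B1-8 arrays. Oas1a fell by 2.16 ± 0.16 (adjusted p = 1.56e-05) and Oas2 (−2.77 ± 0.22) also fell. Oas3 had 7.37, 7.73 and 6.91 in B1-8 cells and 7.91, 8.15 and 7.39 in V23 cells, against 8.65, 8.05, 8.31 and 8.30 in naive cells. The second V23 array lay above the lowest naive array. Oas3 passed the test for both GC groups averaged (−0.75 ± 0.21, adjusted p = 0.0191) and in B1-8 cells (−0.99, adjusted p = 0.0141), while the V23 difference of −0.51 did not pass (adjusted p = 0.146). The call for both averaged ended without naive replicate 1 (−0.64, adjusted p = 0.0589) and with quantile normalization (−0.62, adjusted p = 0.0503). The B1-8 call ended without B1-8 replicate 3 (−0.78, adjusted p = 0.0508).

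The synthetase-like genes also moved unequally. Oasl1 fell by 1.39 ± 0.08. Oasl2 fell by 0.90 ± 0.27 (adjusted p = 0.0255), with adjusted p = 0.0651 in B1-8 and 0.0487 in V23 cells. Leaving out naive replicate 1, B1-8 replicate 2 or V23 replicate 1 ended the Oasl2 call for both averaged, with adjusted p = 0.0559, 0.0543 and 0.0522, as did centring each array on its median (0.0514), and its V23 call ended in 12 of 21 alternatives. Eif2ak2, the kinase PKR that stops translation on double-stranded RNA, fell by 1.49 ± 0.18, and the exonuclease Isg20 fell by 0.58 ± 0.09.

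Of 6 other antiviral effectors, 5 fell and 1 rose for both GC groups averaged, where 21.0% of all genes fell and 20.5% rose. Mx1, a gene of the dynamin-like GTPases, had 5.32, 5.27 and 5.50 in B1-8 cells and 5.28, 5.18 and 3.18 in V23 cells, against 9.51, 9.48, 9.76 and 9.51 in naive cells (1451905_a_at). Only the third V23 array was below log2 4. Mx1 was at least 22.2-fold lower in GC cells (adjusted p = 2.63e-05 on the values as deposited).

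Mx2, its close relative, had 3.67, 4.05 and 3.71 in B1-8 cells and 3.67, 3.17 and 3.93 in V23 cells, against 8.66, 8.01, 8.33 and 8.08 in naive cells (1419676_at). Nearly all of the GC values were below log2 4. Mx2 was at least 19.2-fold lower (adjusted p = 1.23e-06 on the values as deposited). It entered the test only through its naive arrays, so its p-value is not used as support here.

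Rsad2 (viperin, which makes a chain-terminating nucleotide) fell by 2.24 ± 0.20, and its neighbour Cmpk2, a nucleotide kinase, fell by 2.005 ± 0.14. Bst2 (tetherin, which holds budding virus at the cell surface) had 6.00, 7.39 and 7.21 in B1-8 cells and 5.68, 6.82 and 7.21 in V23 cells, against 8.58, 8.72, 8.89 and 9.10 in naive cells. The first array of each GC line was the lowest. Bst2 fell by 2.10 ± 0.36 (adjusted p = 0.00151). Its B1-8 call ended without naive replicates 2 and 4 together (−1.87, adjusted p = 0.0523).

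Samhd1, which hydrolyses the nucleotides needed for viral DNA synthesis, went the other way. It had 12.70, 12.74 and 12.66 in B1-8 cells and 12.77, 12.61 and 12.66 in V23 cells, against 12.22, 12.15, 12.20 and 11.89 in naive cells (1434438_at). All GC arrays lay above all naive arrays. Samhd1 rose by 0.57 ± 0.09 (adjusted p = 0.000746). Its probe sets disagreed: of 4 others, 2 were higher (0.26, adjusted p = 0.0200, and 0.61, adjusted p = 0.0308), 1 did not pass (0.20, adjusted p = 0.207) and 1444064_at was lower (−1.98, adjusted p = 0.00377). With the mean of all 5 probe sets the difference was −0.07 (adjusted p = 0.668).

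**Figure D3:**
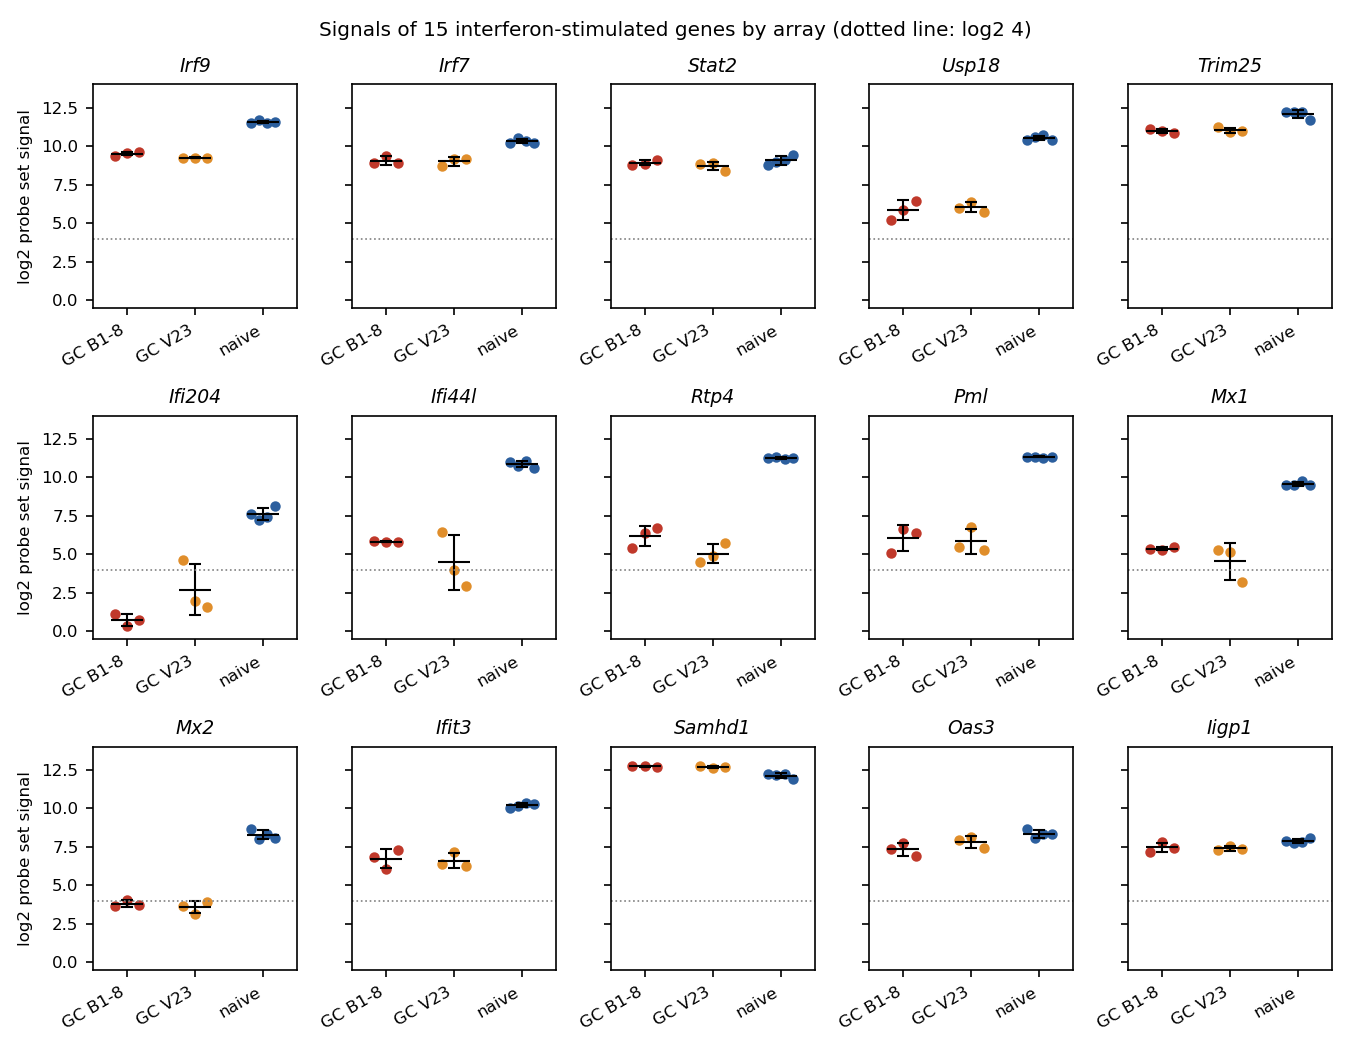
Log2 probe set signals of 15 genes on each array, with group means (long bars) and SDs (error bars) for B1-8 (n = 3), V23 (n = 3) and naive (n = 4) samples; the dotted line is log2 4. GC points sit far below naive points in Usp18, Rtp4, Pml, Mx1 and Ifi44l, overlap them in Stat2, Oas3 and Iigp1, and sit above them in Samhd1.

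The GTPases that attack vacuoles of intracellular pathogens respond mostly to interferon-gamma. For both GC groups averaged they fell in 6 of 6 cases with a median of −1.52, where 21.0% of all genes fell. Irgm1 had 9.09, 9.67 and 9.16 in B1-8 cells and 8.99, 8.78 and 8.66 in V23 cells, against 11.95, 11.81, 11.78 and 11.65 in naive cells (1418825_at). The groups lay well apart. Irgm1 fell by 2.74 ± 0.13 (adjusted p = 2.7e-06). Gbp2 (−2.51 ± 0.11), Igtp (−1.76 ± 0.16), Ifi47 (−1.28 ± 0.09) and Gbp3 (−1.20 ± 0.14) fell too.

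Iigp1 stood at the low end of this family. It had 7.17, 7.79 and 7.41 in B1-8 cells and 7.28, 7.57 and 7.34 in V23 cells, against 7.89, 7.77, 7.81 and 8.06 in naive cells. The second B1-8 array lay just above the lowest naive array. Iigp1 fell by 0.46 ± 0.13 (adjusted p = 0.0226), with adjusted p = 0.0695 in B1-8 and 0.0372 in V23 cells, and its second probe set fell by 2.15. Leaving out naive replicate 1 or naive replicate 4 ended the call for both averaged (adjusted p = 0.0546 and 0.0622), and the V23 call ended in 11 of 21 alternatives, quantile normalization among them (0.0552).

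Genes of ADP-ribosylation and ubiquitin transfer fell by differing amounts. Parp14 (−1.28 ± 0.10), Dtx3l (−0.56 ± 0.07) and its binding partner Parp9 (−0.38 ± 0.07, adjusted p = 0.00244) fell. Trim21, a cytosolic antibody receptor and ubiquitin ligase, fell by 0.98 ± 0.07.

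Both genes of nuclear PML bodies fell for both GC groups averaged, where 21.0% of all genes did, by very different amounts. Pml, which builds these bodies, had 5.07, 6.64 and 6.38 in B1-8 cells and 5.45, 6.78 and 5.29 in V23 cells, against 11.33, 11.34, 11.26 and 11.33 in naive cells (1456103_at). The naive arrays were nearly equal and the GC arrays spread, but far below. Pml fell by 5.38 ± 0.37 (adjusted p = 1.13e-05), a 41.7-fold difference, and 2 other Pml probe sets fell (−5.72 and −2.60). Sp100, another component, fell by 0.69 ± 0.10.

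The less characterised genes included some of the largest differences. Rtp4, a chaperone of membrane receptors, had 5.43, 6.40 and 6.70 in B1-8 cells and 4.48, 4.91 and 5.71 in V23 cells, against 11.23, 11.34, 11.21 and 11.24 in naive cells (1418580_at). The naive arrays were again nearly equal. Rtp4 fell by 5.65 ± 0.29 (adjusted p = 3.43e-06), a 50.3-fold difference, the largest among members with every array above log2 4.

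Ifi44l had 5.88, 5.79 and 5.80 in B1-8 cells and 6.47, 4.00 and 2.96 in V23 cells, against 10.99, 10.73, 11.02 and 10.61 in naive cells (1425917_at). The V23 arrays disagreed with each other, and 2 of them were below log2 4 before rounding. Ifi44l was at least 45.7-fold lower (adjusted p = 7.8e-05 on the values as deposited). Xaf1, a factor that promotes cell death, had 8.20, 8.27 and 8.29 in B1-8 cells and 7.80, 7.75 and 7.89 in V23 cells, against 10.68, 10.77, 10.86 and 10.78 in naive cells (1443698_at). It fell by 2.74 ± 0.07 (adjusted p = 3.62e-07), and Ifi35 fell by 0.85 ± 0.07.

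Of the 29 further single-symbol probe sets of 19 of these genes, 21 fell, 2 rose (both of Samhd1) and 6 did not pass limma's test. Samhd1 1444064_at is among those that fell. By gene, 21.0% of all genes fell and 20.5% rose, and a share over all 32240 probe sets was not counted. Those that did not pass include probe sets of Cmpk2 (−0.56, adjusted p = 0.488), Eif2ak2 (−0.30, adjusted p = 0.264) and Rsad2 (−0.72, adjusted p = 0.0717). Members that neighbour each other on the chromosome did not always change by like amounts. The differences were −3.03 and −3.54 for Ifit2 and Ifit3 and −2.24 and −2.005 for Rsad2 and Cmpk2. They were −2.77 and −0.75 for Oas2 and Oas3, and −1.28, −0.56 and −0.38 for Parp14, Dtx3l and Parp9.

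The second question was whether the GC cells of the 2 lines differ. B1-8 and V23 heavy chains pair with λ light chains to bind the hapten NP, and B1-8 is known as the higher-affinity one. None of the 41 genes passed limma's test between B1-8 and V23 GC cells; among all genes 0.00581% were higher and 0.0174% lower in B1-8. The smallest adjusted p was 0.252, for Xaf1. At an unadjusted p under 0.05, 8 genes were higher in B1-8 (4.78% of all genes) and 2 lower (2.94%).

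The B1-8 mean was above the V23 mean in 34 of 41 genes, against 50.9% of all genes. With quantile normalization or with each array centred on its median it was 33 of 41, against 48.8% and 45.7% of all genes, and leaving out 1 GC array gave 30 to 34. In 6 genes (Irf9, Oas1a, Ifi47, Irgm1, Trim21 and Xaf1) all 3 B1-8 arrays lay above all 3 V23 arrays, as in 7.07% of all genes. In 1, Ifi204, they all lay below, as in 6.63%. The median difference over the 41 genes was 0.15 (log2), beside 0.00 over all genes.

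No marker of the lists above passed limma's test between the lines. The median B1-8 minus V23 difference was 0.62 for T cell, 0.40 for macrophage and monocyte, 0.33 for neutrophil and 0.30 for plasmacytoid dendritic cell markers. Each of these lists also held negative differences, down to −0.16, −0.03, −0.94 and −0.75. The median was 0.15 for natural killer cell, 0.14 for B cell and 0.02 for conventional dendritic cell markers. For plasma cell, erythroid and GC B cell markers it was 0.01, −0.02 and −0.04. The Actb 3′ minus 5′ difference, 0.98 in B1-8 and 0.777 in V23 samples, and that of Gapdh, 0.215 and 0.0535, were higher in B1-8. The part of these markers and of RNA quality in the line difference was not tested.

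The line differences of Xaf1, Oas1a, Rtp4, Irf9 and Irgm1 were smaller than their differences from naive cells. Xaf1 differed between B1-8 and V23 by 0.44 ± 0.09 (95% interval 0.24 to 0.64, adjusted p = 0.252) and Oas1a by 0.70 (0.24 to 1.17, adjusted p = 0.503). For Rtp4 the difference was 1.14 ± 0.37 (0.30 to 1.99), for Irf9 0.28 (0.07 to 0.50) and for Irgm1 0.50 (0.11 to 0.89), with adjusted p of 0.555, 0.564 and 0.564. Ifi204 differed by −1.98 (−3.59 to −0.37) as deposited, but by −0.20 with values below log2 4 raised to it. For Usp18 the interval was −0.87 to 0.50, which leaves room for a difference in either direction. These p-values miss the threshold, which does not show that the lines are alike.

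**Figure D4:**
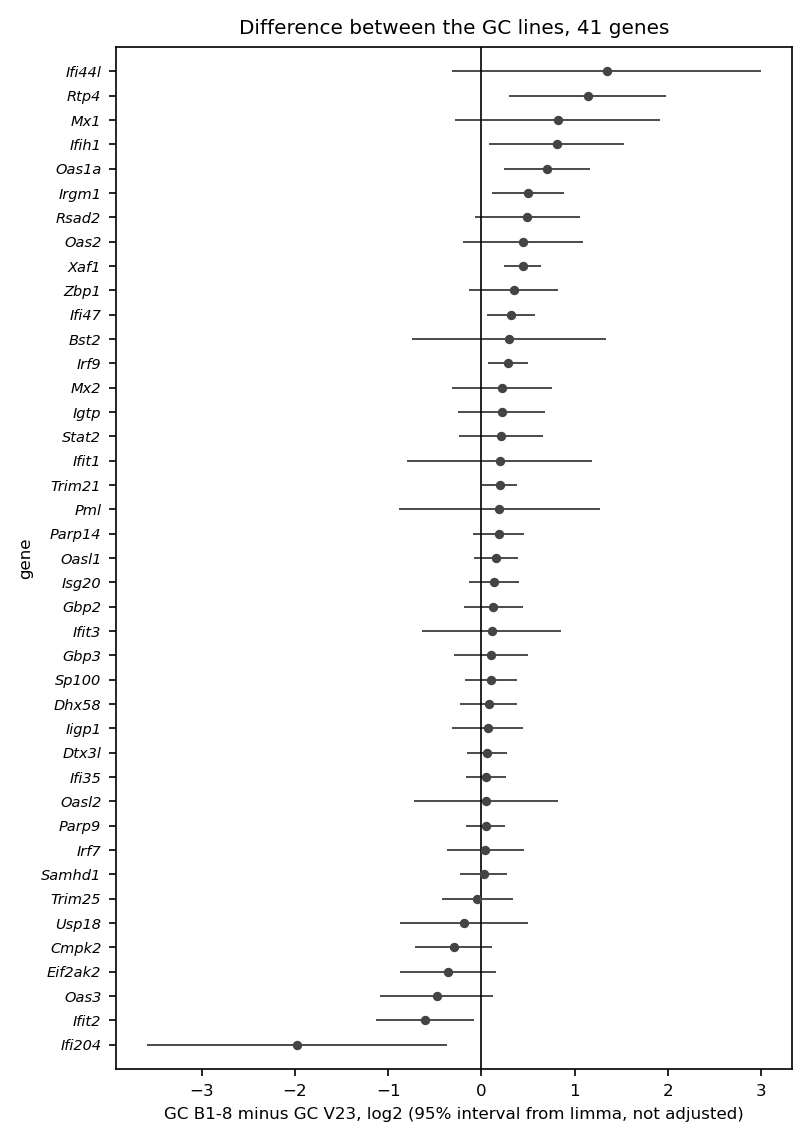
B1-8 minus V23 GC difference (log2) of each of the 41 genes, with the 95% interval from limma, not adjusted for multiple testing. 34 points lie above 0, and none of the 41 genes passed the adjusted test.

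Other genes of the pathway were read for both GC groups averaged against naive. In that comparison 21.0% of all genes fell and 20.5% rose, with a median of 0.06. Of 10 tested receptor, kinase and STAT genes, 4 fell and 1 rose. Ifnar1, the signalling chain of the type I receptor, had 9.12, 9.12 and 9.19 in B1-8 cells and 9.06, 9.12 and 8.90 in V23 cells, against 9.94, 9.95, 9.77 and 10.11 in naive cells. The groups were apart with little spread within each. Ifnar1 fell by 0.86 ± 0.09 (adjusted p = 7.94e-05).

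Ifnar2, the ligand-binding chain, had 6.93, 6.56 and 7.14 in B1-8 cells and 6.94, 7.07 and 7.24 in V23 cells, against 10.39, 10.25, 10.33 and 10.67 in naive cells. This probe set, 1440169_x_at, can share sequence with other genes, but 2 other Ifnar2 probe sets also fell (−1.64 and −2.27). Ifnar2 fell by 3.43 ± 0.14 (adjusted p = 1.2e-06), and Il10rb, a chain of the interferon-lambda and IL-10 receptors, fell by 3.32 ± 0.12. Tyk2 fell by 0.56 ± 0.09, Jak1 differed by 0.20 (adjusted p = 0.124), and Ifnlr1, the other lambda receptor chain, rose by 0.66 ± 0.22 (adjusted p = 0.0383). The interferon-gamma receptor chains did not pass the test, with differences of −0.21 for Ifngr1 (adjusted p = 0.327) and −0.16 for Ifngr2 (adjusted p = 0.173) on their brightest probe sets, but a second Ifngr2 probe set (1423557_at) was lower (−0.56, adjusted p = 0.0234 over all probe sets).

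Among 6 other interferon regulatory factors 3 fell and 1 rose, beside the 21.0% and 20.5% of all genes. Irf4, which is induced by antigen receptor signals (−1.91 ± 0.11), Irf1 (−0.99 ± 0.09) and Irf3 (−0.35, adjusted p = 0.00636) fell, while Irf8, a factor of GC B cells, rose by 0.28 ± 0.08 (adjusted p = 0.0223). Of 11 negative regulators 5 rose, where 20.5% of all genes did, and 3 fell, near the 21.0% of all genes. Socs1, a kinase inhibitor that interferons induce, had 7.24, 8.15 and 8.06 in B1-8 cells and 7.56, 7.53 and 7.56 in V23 cells, against 6.38, 6.69, 5.92 and 6.30 in naive cells. All GC arrays lay above all naive arrays. Socs1 rose by 1.36 ± 0.21 (adjusted p = 0.000816), while Socs3 fell by 1.76 ± 0.16. Of the STAT inhibitors of the PIAS family, Pias3 fell by 1.16 ± 0.12 on its brightest probe set and differed by −0.24 on another (adjusted p = 0.397). The probe sets of Pias2 disagreed: the brightest rose by 0.88 ± 0.12, 1428725_at was lower (−0.52, adjusted p = 0.0153) and 1419454_x_at did not pass (−0.35, adjusted p = 0.0834).

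Sensors that trigger interferon production fell in 9 of 13 cases and rose in 0, where 21.0% and 20.5% of all genes did, with a median of −0.94. Tlr7, the endosomal sensor of single-stranded RNA, had 5.98, 6.48 and 5.80 in B1-8 cells and 4.02, 5.29 and 5.79 in V23 cells, against 10.32, 9.96, 10.02 and 10.18 in naive cells. The naive arrays were tightly grouped and far above the GC arrays. Tlr7 fell by 4.56 ± 0.32 (adjusted p = 1.17e-05). Ddx58, the RNA sensor RIG-I, had 8.20, 8.80 and 9.25 in B1-8 cells and 9.09, 9.30 and 8.70 in V23 cells, against 11.64, 11.57, 11.32 and 11.56 in naive cells, and fell by 2.64 ± 0.21 (adjusted p = 2.06e-05). Sting1, the adaptor of cytosolic DNA sensing, fell by 1.19 ± 0.11, and its kinase Tbk1 fell by 0.94 ± 0.08. The kinases Irak1, downstream of Toll-like receptors (−1.26 ± 0.13), and Ikbke, a relative of Tbk1 (−1.35 ± 0.18), fell as well. Tlr9, the sensor of unmethylated DNA, differed by 0.09 ± 0.38 (adjusted p = 0.875).

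Of 6 tested interferon genes 1 rose and 0 fell, with 20.5% and 21.0% over all genes. Ifna5 had 5.82, 5.30 and 5.99 in B1-8 cells and 3.89, 3.94 and 5.57 in V23 cells, against 3.28, 3.30, 4.59 and 2.47 in naive cells, at levels where values carry little order and on a probe set that can share sequence with related genes. Its difference was 1.67 ± 0.47 (adjusted p = 0.0193 for both GC groups averaged, 0.175 in V23 cells). Ifnb1 differed by 0.20 ± 0.26 (adjusted p = 0.587).

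A further 36 interferon-induced genes fell in 26 cases and rose in 5, where 21.0% of all genes fell and 20.5% rose, with a median of −0.998 beside 0.06 over all genes. The smallest p-values were those of Trim30a (−2.28 ± 0.09), Irgm2 (−2.10 ± 0.11), Gbp6 (−2.98 ± 0.16), Gbp7 (−3.42 ± 0.18), Slfn2 (−1.95 ± 0.10) and Ifi27 (−2.17 ± 0.12). The 5 that rose, named here after their values were seen, were Psmb8 (0.50 ± 0.06) and Psmb9 (0.75 ± 0.07), subunits of the immunoproteasome, Tap2 (0.31 ± 0.08), the peptide transporter, Ube2l6 (0.58 ± 0.15), the conjugating enzyme for Isg15, and Ifitm2 (0.90 ± 0.22). In the line comparison the B1-8 mean was above the V23 mean in 29 of these 36, against 50.9% of all genes.

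**Figure D5:**
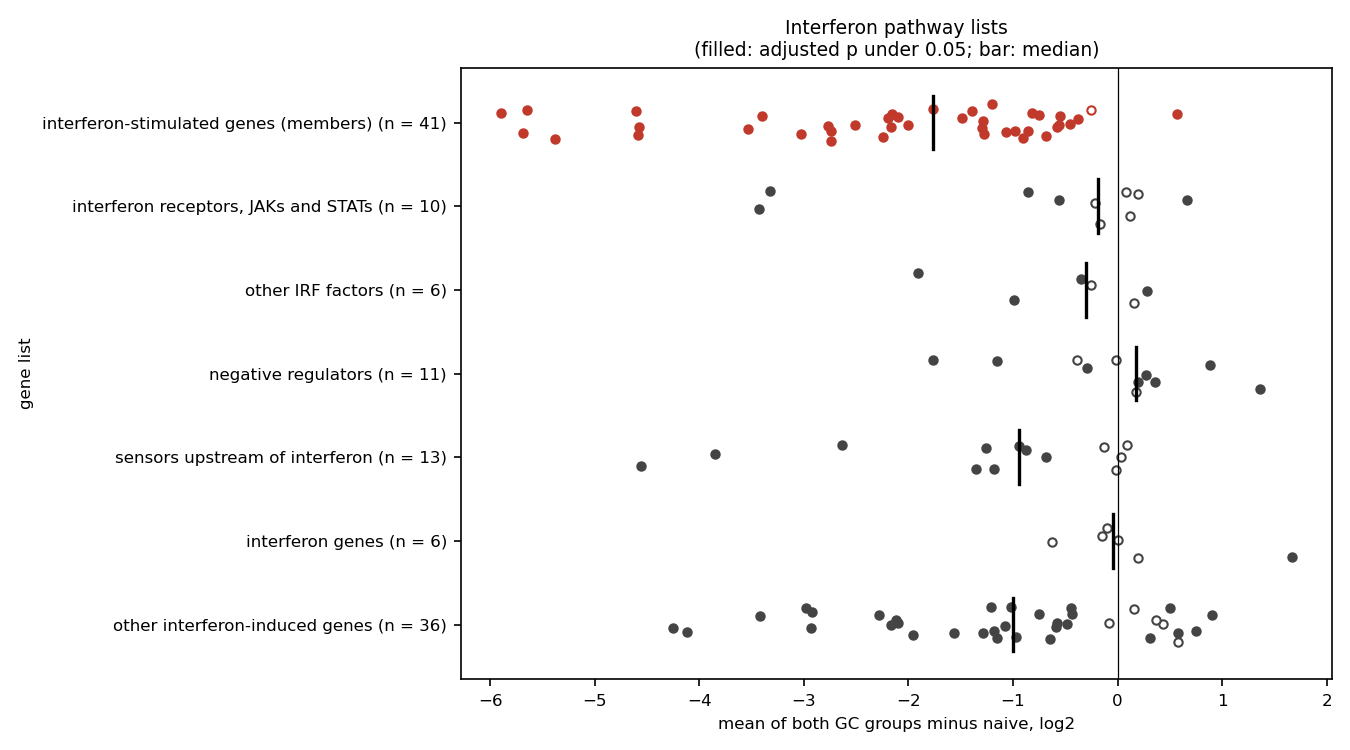
Mean GC minus naive log2 difference of each tested gene in the 41 interferon-stimulated genes (red) and in 6 pathway lists (grey). Filled points passed limma's test, open points did not, and the bar is the list's median, −1.76 for the interferon-stimulated genes, −0.94 for the sensors and 0.18 for the negative regulators.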

How the data were processed

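Log2 signals of 45101 probe sets on 10 arrays were used as the authors deposited them. Per the submitters' processing notes they were made with GCRMA, with no version given. The deposited log2 values have no floor (−4.29 to 14.88) and the unlogged mean, trimmed by 2% at each end, is 500 on each array, so the step that made them is not settled here. Files name no genome build.

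Per the platform annotation, 34958 probe sets carry 1 gene symbol, 932 several and 9211 none. For each symbol the probe set with the highest mean was kept, and 17204 genes above log2 4 on at least 3 arrays were tested with limma 3.58.1 (R 4.3.3): group means over 10 arrays, empirical Bayes without trend, two-sided, Benjamini-Hochberg over all genes tested in each comparison. Residual degrees of freedom were 7, with 1.46 from the prior. Residual SDs had medians of 0.889 in genes with a mean under log2 6 and 0.118 in those over log2 10, and the number of arrays limits the precision. The fit was tested on simulated data. "At least" folds use values below log2 4 raised to it. Control probe set differences used exact permutation tests.

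The gene lists, the members and the tests were chosen with earlier results of these data known. Arrays were described one by one for all transcription factor and ISG15 system members, the 8 largest differences, members not called lower and the 5 smallest p-values between the lines. Of each pathway list, up to 6 genes with the smallest p and a few fixed genes could be named; Ifngr1, Ifngr2 and the array values of Ifih1, Oas3, Bst2 and Iigp1 were added after values were seen. Alternatives covered the filter, probe set choice, scaling, moderation, array weights, a 2-fold minimum, a replicate block and each array left out. Figures were drawn with matplotlib 3.10.9.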

Additional observations from a re-analysis of the deposited data

Results flagged for a closer look

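Single naive arrays stood apart from the other 3 for 6 genes, 5 of them members of the list, with a gap past Dixon's 95% limit for 4 values. Of 41 members, 38 pathway genes and both control differences, 81 sets of 4 naive arrays were examined, and chance alone marks about 1 in 20. Trim25 was 11.69 on the fourth naive array, against 12.20 to 12.24 on the others. Eif2ak2 was 9.18 on the fourth naive array, against 8.94 to 8.98. Mx1 was 9.76 on the third naive array, against 9.48 to 9.51, and Pml was 11.26 there, against 11.33 to 11.34. Parp9 was 11.17 on the second naive array, against 10.98 to 11.00. Tdrd7, another interferon-induced gene named only here, after its values were seen, was 9.25 on the fourth naive array, against 9.62 to 9.64. All of these values lay above all GC values of the same gene.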

How the results depend on the processing

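The median of the interferon-stimulated genes was lower in GC cells under each alternative run. Leaving out 1 array in turn gave 35 to 37 genes called lower in B1-8 cells, 36 to 38 in V23 cells and 36 to 39 for both averaged, with medians of −1.73 to −1.52, −1.98 to −1.68 and −1.84 to −1.67. The highest B1-8 median came without B1-8 replicate 1, and the highest V23 medians, −1.68 and −1.69, without V23 replicates 1 and 3. Under the other alternatives 28 to 38, 29 to 38 and 28 to 39 genes were called lower, the fewest with the 2-fold minimum, which by construction drops small falls. The count called higher was 0 in place of 1 in B1-8 cells, in V23 cells and for both averaged, with the mean of a gene's probe sets and with the 2-fold minimum. With that mean Samhd1 differed by −0.15 in V23 cells (limma adjusted p = 0.413) and by −0.0669 for both averaged (adjusted p = 0.668), and by 0.02 in B1-8 cells (adjusted p = 0.946). Apart from the 2-fold minimum, the calls of Dhx58, Oas3, Oasl2, Iigp1 and Samhd1 for both averaged ended in at least 1 alternative; the cause was not tested. Between B1-8 and V23, limma called 0 of the 41 genes under each alternative, against 10 at an unadjusted p under 0.05.

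Nothing in the labels says that a replicate number marks a shared animal or day. The 9 correlations of deviations between same-numbered arrays ran from −0.02 to 0.07, which cannot exclude such sharing. With the number as a replicate block 35 genes were called lower and 1 higher in B1-8 cells, with a median of −1.67, 37 lower and 1 higher in V23 cells and 38 lower and 1 higher for both averaged, where Iigp1 had adjusted p = 0.0695. Over all genes the block gave 5064 calls in place of 5796 for B1-8, 5825 in place of 6513 for V23, 6429 in place of 7140 for both averaged and 0 in place of 4 between the lines. Low signals limit the reading of Ifi204, Mx2, Mx1 and Ifi44l in GC cells to bounds.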
